A study of Sus scrofa with 8 samples.

Results

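T cells and natural killer (NK) cells were followed in pig backfat through 10 genes: the receptor subunits CD3D, CD3E and CD3G, the co-receptors CD4 and CD8A, the adhesion molecule CD2, the activation marker CD69, the chemokine CCL5, and the cytotoxic granule genes PRF1 and GZMB. Members were found by symbol: every probe set (the group of short probes that reports 1 transcript) annotated with exactly 1 of these symbols was taken. This gave 11 probe sets for 9 genes, among 23999 probe sets and 6765 named genes on the array. GZMB was the single symbol of no probe set in the annotation used and was not analysed here.

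The samples were backfat, the subcutaneous fat of the back, with 4 samples of the breed KNP, aged 7 months, and 4 of the breed YS, aged 6 months. A single YS label reads Yorkshire instead, and no label expands KNP. Both breeds were kept under the same conditions, and each sample was hybridized to 1 Affymetrix Porcine Genome Array. Age was tied to breed, so breed and age cannot be told apart. The labels do not say whether samples came from separate animals, so p-values reflect only how these samples varied.

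T cells recognise antigen through a receptor that cannot signal by itself. The CD3 chains carry the signal into the cell, while CD4 and CD8 bind major histocompatibility complex class II and class I molecules beside the receptor. Cytotoxic T cells and NK cells kill with perforin, which opens target membranes, and granzymes, which enter and start cell death. In the pig, NK cells lack CD3 but carry CD2 and CD8 alpha, so these genes are not specific to T cells. Adipose tissue holds lymphocytes as a minority between the fat cells. In bulk tissue, fewer cells of a type and less RNA per cell cannot be told apart.

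The arrays differed in technical measures that bear on every value below. Signals were scaled to equal trimmed means, and the array medians ranged from 165 to 224 in KNP and from 158 to 263 in YS. A background level was taken on each array from 23 control probe sets that match no pig RNA, at their 95th percentile (the no-target level). It lay between 76.1 and 115 in KNP and between 40.6 and 161 in YS. The difference in log2 signal between the 3' and 5' ends of housekeeping transcripts, which grows as RNA is degraded or labelled incompletely, was 8.54 in KNP replicate 1, 5.88 in KNP replicate 2 and 4.40 in YS replicate 4, against 2.12 to 3.17 in the other 5 arrays. Its breed means differed by 1.37 (exact permutation test, two-sided, p = 0.457 over 70 assignments, 0.0286 being the smallest possible). All 10 fat cell markers measured were above the no-target level on all 8 arrays, but adiponectin (ADIPOQ) was lowest on the same 3 arrays, with signals of 156 and 431 in KNP replicates 1 and 2 and 564 in YS replicate 4, against 3122 and 5458 in the other KNP arrays and 2302 to 4508 in the other YS arrays. The 10 markers together did not follow ADIPOQ in KNP: their summed signal was 110244, 127439, 135253 and 103354 in KNP replicates 1 to 4. In YS replicates 1 to 4 it was 135053, 110693, 133618 and 91301. By the difference of means 5 of the 10 were lower in KNP and 5 higher (median -0.033). The summed signal of 12 skeletal muscle genes was 78823 in KNP replicate 2, against 1320 to 2388 in the other KNP arrays and 927 to 1750 in YS. Differences are from all 8 arrays. For the members tested, and for some of the other lists and genes, they are also given without these 3.

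No T or NK cell gene passed the test between the breeds. Values were log2(signal + 16), and limma was run over 17999 probe sets, those left after dropping the dimmest 25% by mean; 0% of them passed an adjusted p of 0.05 in limma, and 2.84% had an unadjusted p under 0.05. Of the 11 member probe sets, 7 were bright enough to be tested, 1 each for CCL5, CD69, CD3D, CD3E, CD3G, CD8A and CD2, and 0 passed, with an adjusted p of 0.99984 for each. Only CCL5 and CD69 had an unadjusted p under 0.05 (limma), both with the lower mean in KNP, a direction in which 1.35% of all tested probe sets reached that level. By the difference of means, 10 of the 11 probe sets were lower in KNP, with a median log2 difference of -0.49, where 50.4% of all 23999 probe sets were lower and their median was -0.0044. The 10 include 3 that were below the no-target level on all 8 arrays, the first CD4 and both PRF1 probe sets. The median of -0.49 is itself the value of the first PRF1 probe set. The members were also chosen with earlier results of these data known. The 11 probe sets share the same 8 arrays and several move together across them, so they are not 11 independent observations. Without the 3 arrays 0 of the 7 member probe sets tested had an unadjusted p under 0.05 in limma. Of all probe sets tested, 4.54% then reached it with a lower KNP mean, a share too small to set apart from 0 of 7. The median without them was -0.20; the median was -0.18 without YS replicate 4, -0.32 without KNP replicate 3 and -0.98 without KNP replicate 4.

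The CD3 chains, invariant parts of the T cell receptor complex, showed no common breed difference past the test. CD3E, CD3D and CD3G lie next to each other on the pig chromosome as RefSeq annotates Sscrofa11.1, with 0 genes starting between neighbours; the array data carry no coordinates. CD3E was the 1 member above the no-target level on all 8 arrays. With the level set at the highest control, CD3E was above it on 7 arrays. With the median plus 3 median absolute deviations of the controls, CD8A was above it on 8 arrays too. The signals of CD3E were 269, 150, 125 and 390 in KNP replicates 1 to 4, against 224, 115, 270 and 393 in YS replicates 1 to 4. The groups overlapped almost wholly: the highest KNP and the highest YS array were nearly equal, and the lowest of all was a YS array. The log2 means were 7.83 ± 0.71 in KNP and 7.94 ± 0.69 in YS (SD, n = 4 each), a difference of -0.11 with a 95% interval from -1.12 to 0.90. That interval still allows a difference of about 1 log2 unit either way, and the difference was 0.20 without the 3 arrays and ran from -0.42 to 0.13 with 1 array left out.

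CD3D spread further in KNP. It had signals of 179, 12.2, 15.3 and 116 in KNP replicates 1 to 4, against 81.2, 51.4, 134 and 220 in YS replicates 1 to 4. KNP replicates 2 and 3 were below the no-target level while all 4 YS arrays were above it, and the breeds overlapped. The log2 means were 6.11 ± 1.42 in KNP and 6.95 ± 0.78 in YS (SD, n = 4 each), a difference of -0.84 (95% interval -2.39 to 0.72; limma, unadjusted p = 0.254). It was -0.63 without the 3 arrays and, with 1 array left out, ran from -1.34 without KNP replicate 1 to -0.41 without KNP replicate 2. CD3G had signals of 56.4, 101, 63.0 and 199 in KNP replicates 1 to 4, against 133, 102, 174 and 351 in YS replicates 1 to 4. In KNP only replicate 4 exceeded the no-target level, against 4 of 4 arrays in YS. That count depends on each array's level, which was 115 in KNP replicate 2 and 40.6 in YS replicate 2, at nearly equal signals. With the level set at the highest control, CD3G was above it on 4 arrays of both breeds together, against 5. With the median plus 3 median absolute deviations of the controls, CD3G was above it on 7. Its log2 difference was -0.77 (95% interval -1.80 to 0.25; limma, unadjusted p = 0.123), and -0.20 without the 3 arrays. With 1 array left out it ran from -1.10 without KNP replicate 4, with an unadjusted p of 0.0332 in limma, to -0.45 without YS replicate 4. Whether the breed difference itself differed among the 3 genes was not tested.

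Among the co-receptors, CD8A was above background on 7 arrays, while CD4 was above it on 1 array in 1 of its probe sets. CD8A, the alpha chain of CD8, had signals of 448, 190, 57.0 and 670 in KNP replicates 1 to 4, against 170, 227, 455 and 923 in YS replicates 1 to 4. It was above the no-target level on every array except KNP replicate 3. The lowest array was a KNP array and the highest a YS array, with the rest interleaved. The log2 means were 8.04 ± 1.43 in KNP and 8.55 ± 1.05 in YS (SD, n = 4 each), a difference of -0.51 (95% interval -2.20 to 1.17). It was -0.31 without the 3 arrays and, with 1 array left out, ran from -0.98 without KNP replicate 4 to 0.10 without KNP replicate 3.

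CD4 had 2 probe sets, and neither passed the filter on low values. The first (suffix _s_at) lay below the no-target level on all 8 arrays, between 4.79 and 13.9 in KNP and between 6.16 and 14.4 in YS. The second (suffix _a_at) had signals of 30.3, 8.90, 103 and 78.9 in KNP replicates 1 to 4, against 5.02, 15.0, 47.3 and 34.8 in YS replicates 1 to 4. It was above the no-target level in KNP replicate 3 only, so no fold is given. It was also the 1 member probe set with a higher mean in KNP, by 0.66 (95% interval -0.60 to 1.91 in a fit with no filter). That difference was 1.62 without the 3 arrays and ran from 0.33 without KNP replicate 3 to 1.08 without KNP replicate 2, nearly all of it between values below background.

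CD2 and CD69 mark contact and activation. CD2, which binds CD58 on partner cells, had signals of 17.3, 88.6, 13.3 and 214 in KNP replicates 1 to 4, against 86.8, 28.2, 91.5 and 139 in YS replicates 1 to 4. CD2 exceeded its array's no-target level on 1 KNP and 2 YS arrays, and its highest and its lowest array were both KNP. The log2 difference was -0.42 (95% interval -1.96 to 1.12), and 0.060 without the 3 arrays. With 1 array left out it ran from -0.997 without KNP replicate 4 to -0.0060 without KNP replicate 3.

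CD69, a lectin-like receptor that appears within hours of activation and holds lymphocytes in tissue, had signals of 24.5, 123, 37.0 and 82.3 in KNP replicates 1 to 4, against 72.5, 123, 158 and 315 in YS replicates 1 to 4. The top 2 arrays were YS and the bottom 2 were KNP, with overlap in between. Its signal exceeded background on 1 KNP array and 3 YS arrays. The log2 means were 6.20 ± 0.81 in KNP and 7.35 ± 0.79 in YS (SD, n = 4 each), and no fold is given because 3 of 4 KNP arrays were not above background. The difference as measured was -1.15 ± 0.50 (SE), with an unadjusted p of 0.0475 and an adjusted p of 0.99984 in limma. It was -0.84 without the 3 arrays and ranged from -1.45 to -0.81 when 1 array was left out. Its unadjusted p was under 0.05 in 7 of the 19 fits that tested it, and its lowest adjusted p over those fits was 0.646.

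CCL5 (RANTES), a chemokine that activated T cells, NK cells and some other cells release to draw in leukocytes, showed the widest separation among the members. Its signals were 177, 34.9, 244 and 370 in KNP replicates 1 to 4, against 389, 373, 933 and 694 in YS replicates 1 to 4. Every KNP array lay below every YS array, but the highest KNP signal of 370 and the lowest YS signal of 373 were nearly equal. Such a separation in this direction was seen for 0.856% of the 17999 probe sets tested, and for 1 member. CCL5 was above the no-target level on 3 KNP and 4 YS arrays. The log2 means were 7.47 ± 1.27 in KNP and 9.16 ± 0.63 in YS (SD, n = 4 each), and the YS mean was 3.22-fold the KNP mean. That fold takes KNP replicate 2 as measured, at 34.9, below its no-target level of 115.

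The CCL5 difference was -1.69 ± 0.61 (SE), with a 95% interval from -3.06 to -0.31, an unadjusted p of 0.0213 and an adjusted p of 0.99984 in limma. KNP replicate 2, the array with the muscle signal, held the lowest CCL5 value. Without it the difference was -1.09, and without all 3 arrays it was -0.74. The mean stayed lower in KNP in all 20 fits, and the unadjusted p was under 0.05 in 18 of them, the exceptions being the fits without YS replicate 3 and without the 3 arrays. Its lowest adjusted p over those fits was 0.710, so CCL5 did not pass in any.

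Perforin was not detected above background. Its gene, PRF1, had 2 probe sets, neither of which passed the filter, and both were below the no-target level on all 8 arrays. Signals of the first ran from 8.96 to 26.0 in KNP and from 15.4 to 65.7 in YS. Those of the second ran from 9.15 to 19.4 in KNP and from 9.41 to 36.1 in YS. No fold is given, since neither breed gave a level above background. Another granzyme gene, GZMH, which neighbours GZMB in the pig annotation, was measured and is described with the lists below.

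**Figure D1:**
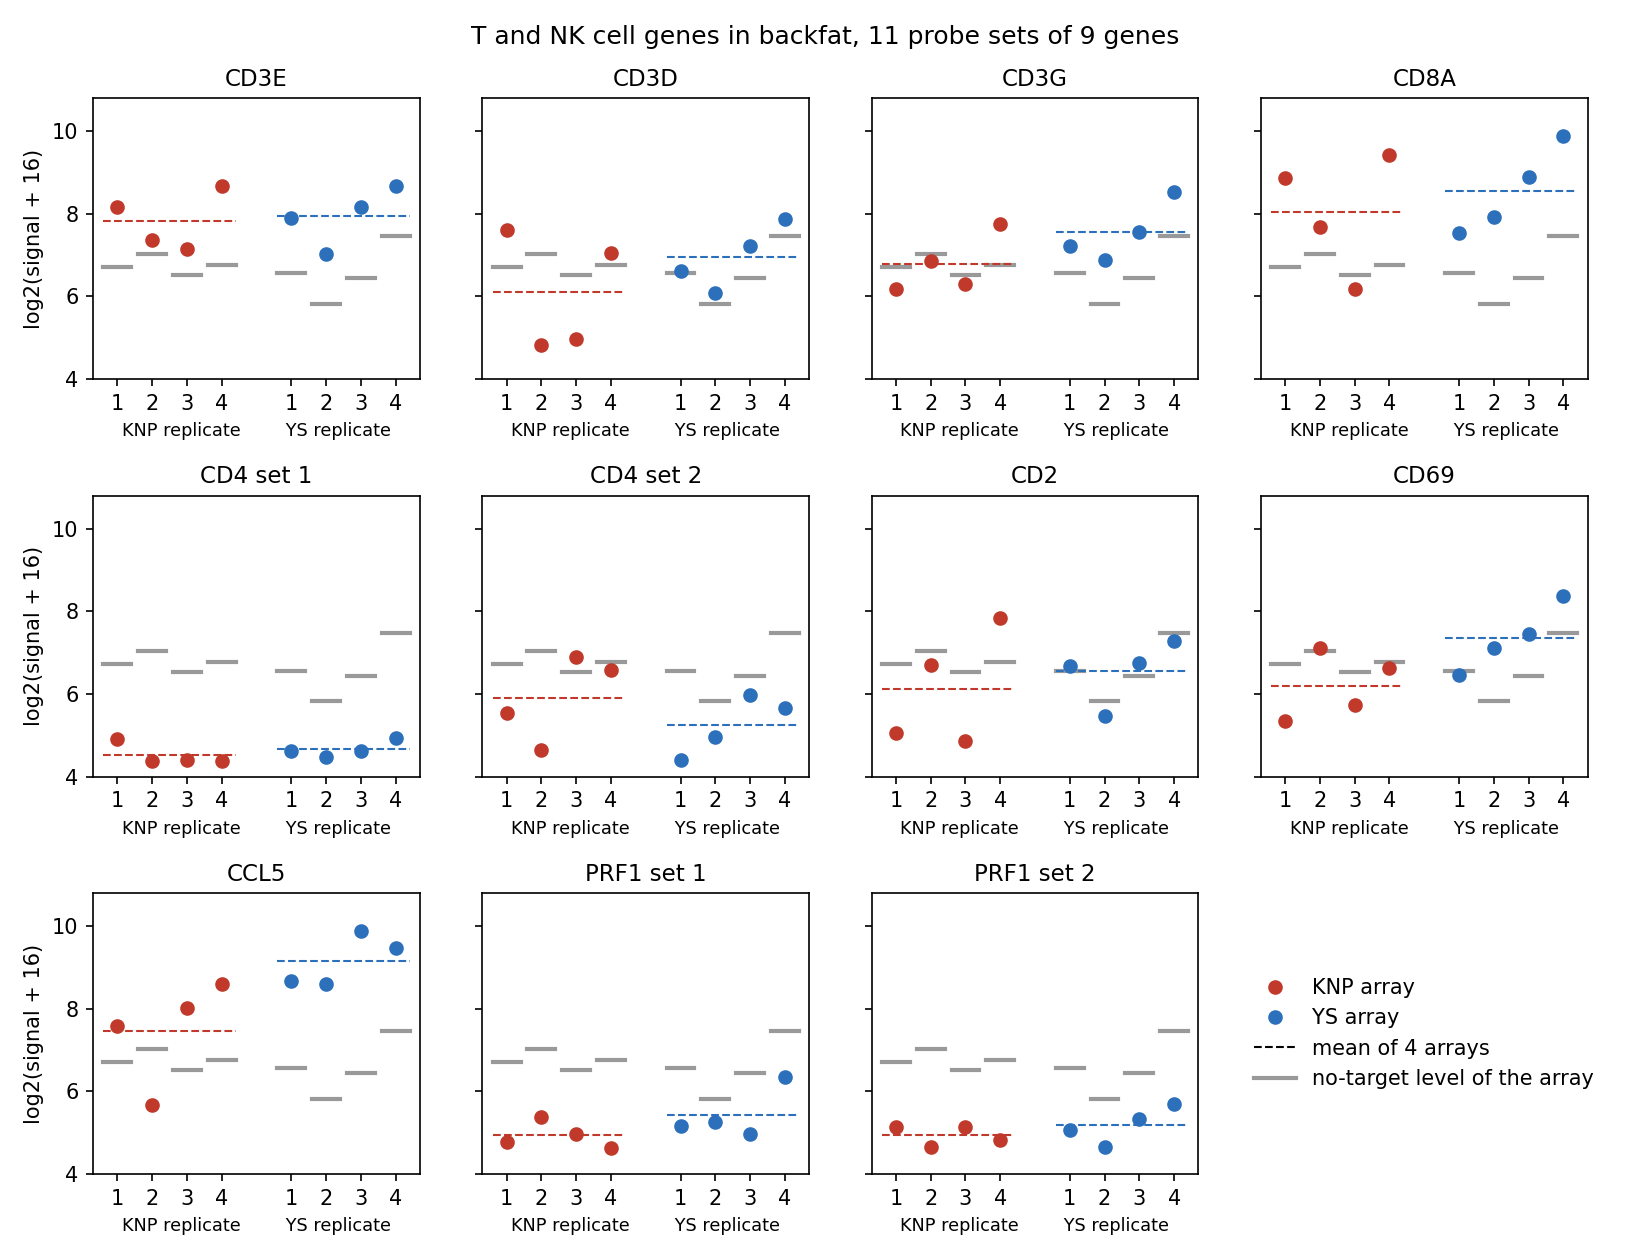
Log2(signal + 16) of the 11 probe sets on each array, KNP in red at the left and YS in blue at the right of each panel; grey bars are the no-target level of the same array and dashed lines the mean of 4 arrays. CCL5 is the 1 member whose breeds do not overlap, CD3E is above the grey bar on all 8 arrays, and both PRF1 probe sets and the first CD4 probe set are below it on all 8.

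The plot of differences sets the 7 tested genes side by side. Their 95% intervals are wide, from about 2 log2 units for CD3E to more than 3 for CD8A, with 4 arrays per breed. The intervals of CCL5 and CD69 lie below 0 and those of the other 5 include 0. Leaving out the 3 arrays moved all 7 estimates towards higher values in KNP.

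**Figure D2:**
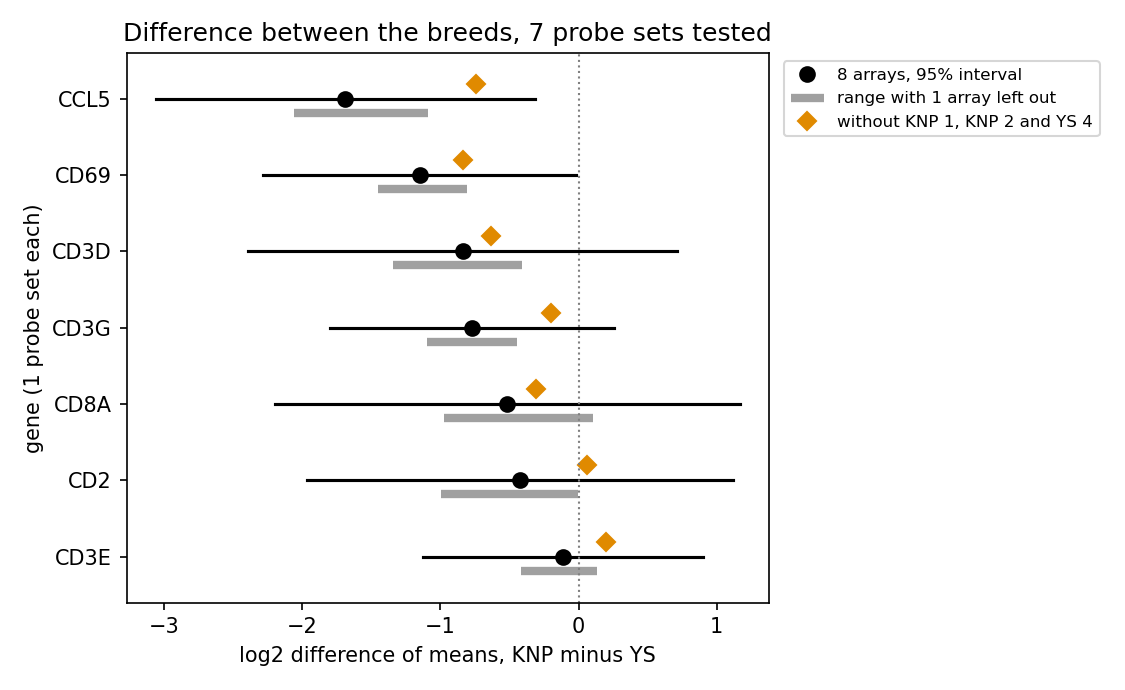
Log2 difference of means, KNP minus YS, for the 7 probe sets tested: black points with 95% intervals use 8 arrays, grey bars span the values with 1 array left out, and orange diamonds leave out KNP replicates 1 and 2 and YS replicate 4. CCL5 (-1.69) and CD69 (-1.15) lie farthest from 0, and the diamonds of CD2 and CD3E lie above 0.

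For the CD3 genes, arrays of the same breed differed by more than the breed means did. The mean deviation of the 3 CD3 genes from their 8-array means was 0.12, -0.84, -1.06 and 0.63 log2 units in KNP replicates 1 to 4, against 0.050, -0.53, 0.46 and 1.17 in YS replicates 1 to 4. KNP replicates 2 and 3 were the lowest, and YS replicate 4 and KNP replicate 4 the highest. YS replicate 4 is also the YS array with the largest 3'/5' difference and the highest median signal, and their part in its high values was not tested. CD8A followed this order in part, with its 2 highest values on the same 2 arrays and its lowest on KNP replicate 3. Of the 11 probe sets, between 3 and 6 exceeded the no-target level per KNP array and 6 or 7 per YS array, 16 of 44 values against 25 of 44. Over all probe sets, 60.2% to 74.1% exceeded that level in KNP and 65.6% to 77.8% in YS.

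**Figure D3:**
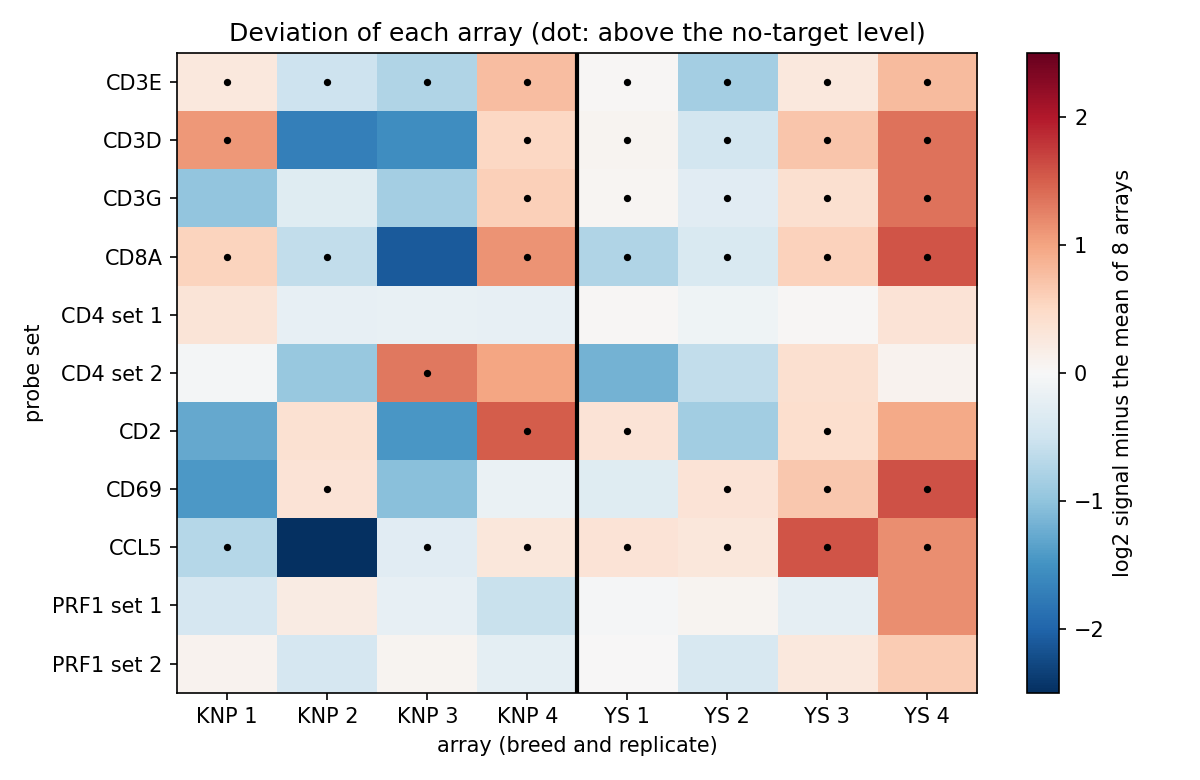
Log2 signal of each probe set minus its mean over 8 arrays, KNP arrays at the left of the black line and YS arrays at the right; a dot marks a signal above the no-target level. YS replicate 4 and KNP replicate 4 are mostly red, KNP replicate 3 mostly blue, and CCL5 is lowest on KNP replicate 2.

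How far other genes shared this pattern was described by the Pearson correlation, over 8 arrays, of each gene's deviations from its breed mean with the mean deviation of CD3D, CD3E and CD3G. Removing the breed means keeps the breed difference out of the measure. Among the tested members outside the profile, r was 0.91 for CD8A, 0.64 for CD2, 0.58 for CCL5 and 0.33 for CD69. The highest values among 5999 other named genes were 0.97 for MAGOH, of the exon junction complex, 0.97 for the kinase gene MAP3K7, 0.95 for the poly(A) polymerase gene PAPD4, and 0.94 each for CCDC126 and LOC396711. The 8 points of each gene share their array's scaling and RNA quality, so these values are a description only. Among 103 genes of the cell marker and pathway lists the highest were 0.89 for JCHAIN, the joining chain of antibodies, 0.87 for CXCL9, a chemokine that attracts T and NK cells, 0.86 for IL10, 0.85 for CORO1A and 0.83 for STAT4.

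CXCL9 showed the pattern at higher signal. It had signals of 658, 363, 320 and 2758 in KNP replicates 1 to 4, against 498, 516, 1999 and 1639 in YS replicates 1 to 4. The highest array was KNP replicate 4 and the lowest 2 were KNP replicates 3 and 2, so the breeds overlapped fully (log2 difference -0.48; 95% interval -2.14 to 1.18). JCHAIN was likewise highest on KNP replicate 4, at 765, with the other KNP arrays between 189 and 270 and the YS arrays between 90.8 and 380. Its log2 difference was 0.32, and -0.11 without KNP replicate 4.

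Other genes of T and NK cells did not pass either. In 5 lists, 59 genes were on the array and 46 were tested, each by its brightest probe set, and 0 passed an adjusted p of 0.05 in limma, against 0% of all probe sets; 2 had an unadjusted p under 0.05, CCL21 and TNF, a level that 2.84% of all probe sets tested reached. By the difference of means 30 of the 59 were lower in KNP, where 48.6% of the 6765 named genes were lower and their median was 0.0095.

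Genes of T cell receptor signalling and co-receptors were lower in KNP for 6 of 9 (median -0.12, and -0.34 without the 3 arrays), with 0 of 7 tested past the threshold. The kinase gene FYN, not confined to T cells, had log2 means of 10.16 ± 0.32 in KNP and 10.48 ± 0.34 in YS (SD, n = 4 each). The adaptor gene LAT, which gathers signalling proteins at the membrane, was at 7.60 ± 0.74 in KNP and 8.10 ± 1.04 in YS. A second FYN probe set had a difference of -0.95, against -0.33 for the first, but it was -0.35 without KNP replicate 2 and 0.099 without the 3 arrays.

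NK receptors and granule genes were split, 6 of 11 lower in KNP with a median of -0.0043 (0.12 without the 3 arrays) and 0 of 9 tested past the threshold. GZMH, a granule protease, had signals of 279, 98.1, 69.2 and 258 in KNP replicates 1 to 4, against 123, 116, 78.5 and 114 in YS replicates 1 to 4. Its KNP arrays lay on both sides of the YS arrays. HCST (DAP10), the signalling partner of the NK receptor NKG2D, was at 7.86 ± 1.14 in KNP and 7.21 ± 1.30 in YS on the log2 scale. Of the 11 genes, 7 were above the no-target level on all 8 arrays and SH2D1A on none. Per array, 60.2% to 77.8% of all probe sets exceeded that level. GZMH was above it on 2 KNP and 3 YS arrays and HCST on 3 of each breed, so neither was among the 7. Whether the signal of the 7 came from NK cells was not tested.

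Lymphocyte transcription factors were lower in KNP for 3 of 6 (median 0.14), with 0 of 5 tested past the threshold. SATB1, a chromatin organiser of developing T cells, was at 6.02 ± 0.93 in KNP and 7.08 ± 0.47 in YS (difference -1.06 ± 0.47 SE; limma, unadjusted p = 0.0507, adjusted p = 0.99984), and was above the no-target level on 1 KNP and 4 YS arrays. The difference was -0.62 without KNP replicate 2, whose signal of 10.1 was the lowest, and -0.67 without the 3 arrays. Its 3 other probe sets had differences of 0.60, 0.11 and -0.43, so the gene's probe sets disagreed in sign. LEF1, a factor of T cell development, was at 7.14 ± 0.86 in KNP and 6.78 ± 1.10 in YS. Its YS mean rested on replicate 4, at a signal of 326 against 50.1 to 65.9 in the others. Its KNP mean was likewise raised by replicate 1, at 315 against 73.9 to 119 in the others. The LEF1 difference was 0.36, but -0.046 without KNP replicate 1 and 0.91 without YS replicate 4.

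Cytokine genes and their receptors were lower in KNP for 4 of 17 and higher for 13 (median 0.17), with 0 of 13 tested past the threshold. TNF, an inflammatory cytokine made by macrophages and activated lymphocytes, had signals of 265, 133, 150 and 113 in KNP replicates 1 to 4, against 34.5, 24.2, 67.3 and 163 in YS replicates 1 to 4. TNF exceeded background on 4 of 4 KNP arrays and, in YS, on replicate 4 only, and that array alone made the breeds overlap. The difference as measured was 1.22 ± 0.48 (SE; limma, unadjusted p = 0.0311, adjusted p = 0.99984), and 1.40 without the 3 arrays. Because 3 of 4 YS arrays were not above background, its size is uncertain and no fold is given. IL10, which restrains inflammation, was at 7.02 ± 0.24 in KNP and 7.54 ± 0.26 in YS, its 4 KNP values all lying below the 4 YS values, as in 0.856% of the probe sets tested.

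Chemokines and receptors of lymphocyte traffic were lower in KNP for 11 of 16 (median -0.18, and 0.056 without the 3 arrays), with 0 of 12 tested past the threshold. CCL21, made by lymphatic vessels and lymph node stroma to draw in naive T cells, had signals of 33.4, 19.1, 29.8 and 30.3 in KNP replicates 1 to 4, against 42.3, 394, 190 and 93.0 in YS replicates 1 to 4. Every KNP array lay below every YS array, again as in 0.856% of the probe sets tested, and CCL21 exceeded background on 0 KNP arrays and, in YS, on replicates 2 and 3 only. The difference as measured was -1.80 (limma, unadjusted p = 0.00842, adjusted p = 0.99984), and -1.89 without the 3 arrays. Because 0 KNP arrays and only those YS arrays were above background, its size is uncertain and no fold is given. CCR1, a receptor for CCL5 found mainly on myeloid cells, was at 8.66 ± 0.76 in KNP and 7.85 ± 0.20 in YS, its 4 KNP values all lying above the 4 YS values, a separation that 1.1% of the probe sets tested had. The difference was 0.82, and 0.46 without KNP replicate 1. Its highest signal was 833 in KNP replicate 1, against 254 to 387 in the other KNP arrays and 184 to 251 in YS, so the nearest values of the breeds were almost equal.

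**Figure D4:**
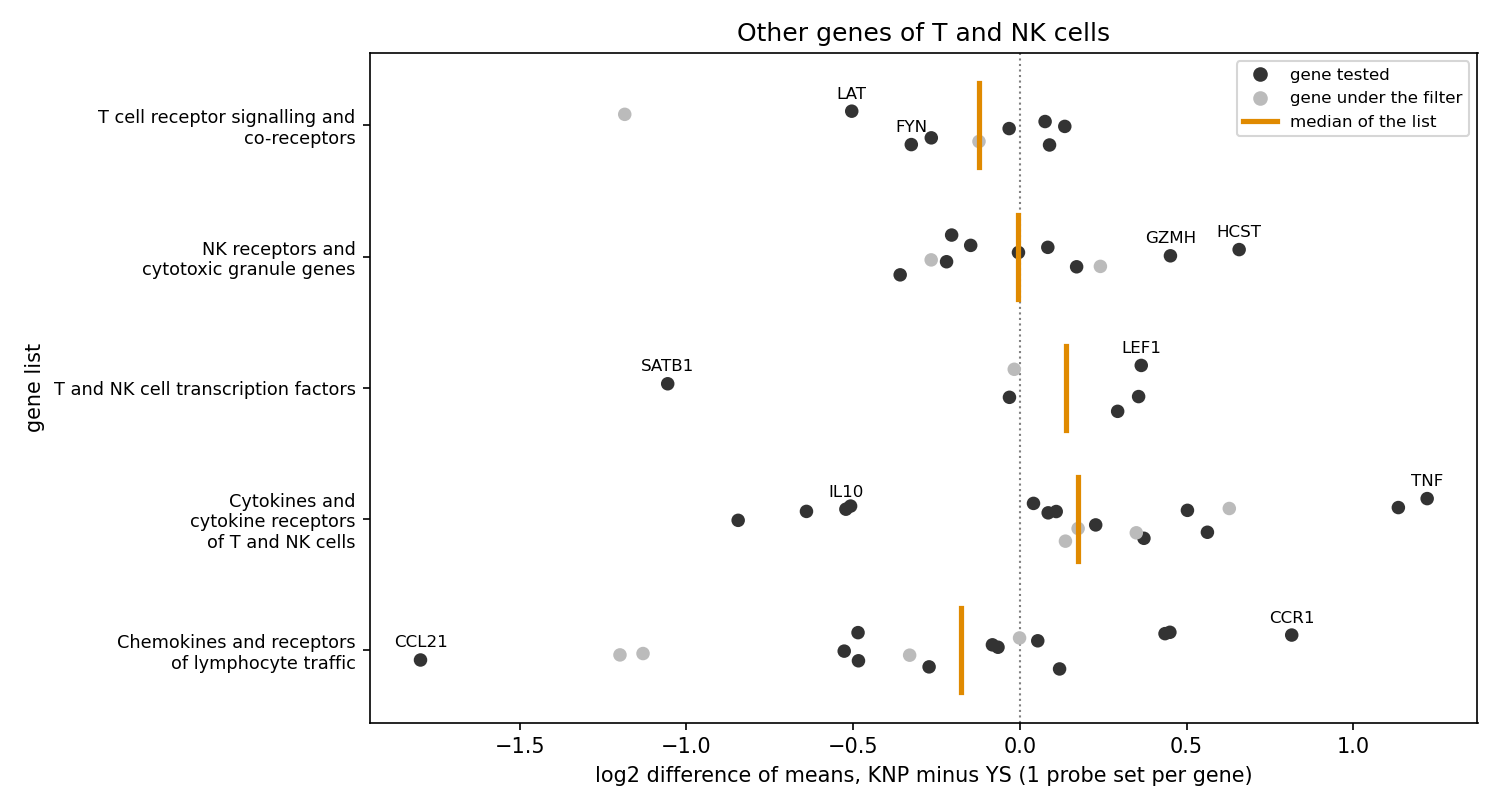
Log2 difference of means, KNP minus YS, for 59 genes of 5 lists of T and NK cell function, 1 point per gene (black if tested, grey if under the filter), with the median of each list as an orange line. CCL21 (-1.80 as measured, with KNP at background) and TNF (1.22) are at the 2 ends, and the list medians lie between -0.18 and 0.17.

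Markers of other cells were read beside the members. Of 9 genes shared by all leukocytes, 6 were lower in KNP (median -0.15, and 0.33 without the 3 arrays), and their summed signal ran from 4476 to 8453 in KNP and from 4203 to 8835 in YS. Among them PTPRC (CD45), the common leukocyte phosphatase, was at 6.24 ± 0.93 in KNP and 7.00 ± 0.81 in YS on the log2 scale, above the no-target level on 1 KNP and 3 YS arrays. Of 14 macrophage and myeloid markers 8 were lower (median -0.053), with sums of 5138 to 8579 in KNP and 6239 to 14873 in YS, the YS maximum being replicate 3, which also held the highest CCL5 signal. CD14 was at 7.19 ± 0.99 in KNP and 6.68 ± 0.77 in YS, and SIGLEC1 was above the no-target level on no array. B cell markers were lower for 2 of 4 (sums 443 to 1024 in KNP and 295 to 806 in YS), with CD79B above the no-target level on 1 array of each breed and TNFRSF17 on none. Endothelial markers were lower for 8 of 11 (median -0.098, and 0.24 without the 3 arrays), with sums of 12736 to 23452 in KNP and 16845 to 18397 in YS. KDR was above the no-target level on no array. PECAM1 was at 13.16 ± 0.25 in KNP and 12.92 ± 0.14 in YS, a difference of 0.24, and 0.47 without the 3 arrays. A second PECAM1 probe set had a difference of -0.13, and 0.82 without the 3 arrays. Red blood cell markers were lower for 3 of 4 (sums 861 to 1353 in KNP and 1006 to 1256 in YS; HBB at 8.95 ± 0.57 in KNP and 9.14 ± 0.25 in YS). Keratinocyte markers were higher for 4 of 4 (sums 488 to 1322 in KNP and 344 to 1007 in YS; KRT10 at 9.06 ± 0.73 in KNP and 8.72 ± 0.33 in YS). Skeletal muscle markers were higher for 12 of 12 (median 1.43, and -0.65 without the 3 arrays), with CKM at 8.80 ± 3.31 in KNP and 7.24 ± 0.53 in YS. None of these genes passed the test, and the part of other cell types in the members' values was not tested.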

How the data were processed

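Total RNA was labelled with biotin and hybridized to 1-colour arrays, per the labels' protocols. The authors deposited 1 intensity per probe set and array, on a linear scale, for 24123 probe sets; the trimmed mean (2% at each end) was 500.1 on every array. How probes were summarised is not stated in the sources used here, and detection calls were not used here. Symbols came from the platform's annotation (9989 of 10099 single-symbol entries matched to RefSeq for Sscrofa11.1 through Entrez identifiers, 0 symbols changed).

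The authors' scaling was kept. A pseudocount of 16 was added, 124 control probe sets and the dimmest 25% of the rest were dropped, and breeds were compared in limma 3.58.1 (R 4.3.3; lmFit, eBayes, two-sided, no covariate, Benjamini-Hochberg over 17999 probe sets, threshold 0.05). The script was tested on simulated data. Probe sets under the filter took intervals from a fit with no filter. A gene of a list was read from its brightest probe set. No fold is given where most arrays of 1 breed were not above the no-target level. Named were all members, the 4 genes past the threshold or else the 2 with the smallest p of each of 5 lists, the first measured gene of 8 marker lists, and the 5 genes most like CD3 in each of 2 groups. The members and lists were chosen with earlier results of these data known. Correlations between arrays were 0.798 to 0.927 within breeds and 0.800 to 0.929 between breeds, so no array was counted as a duplicate. Same-numbered arrays deviated together with r from -0.188 to 0.125, so numbers were not used as pairs. Alternatives were other filters, normalizations, pseudocounts and variance models, a replicate block, arrays weighted by quality or left out, and a covariate for the 3'/5' difference.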

Additional observations from a re-analysis of the deposited data

Results flagged for a closer look

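Of 98 groups of 4 arrays examined, 7 held an array farther from the others than Dixon's 95% limit allows; chance flags about 1 in 20. CD4 (first probe set) was at 4.90 on the log2 scale in KNP replicate 1, against 4.38 to 4.41 in the other KNP arrays, all below background. GZMH was at 6.56 in YS replicate 3, against 7.03 to 7.11 in the other YS arrays. LEF1 was at 8.42 in YS replicate 4, against 6.05 to 6.36, and IL10 at 7.92 in the same array, against 7.37 to 7.45. The median signal was 223.7 in KNP replicate 1, against 165.1 to 174.2 in the other KNP arrays, and 263 in YS replicate 4, against 158.2 to 166.2 in the other YS arrays. The summed signal of skeletal muscle genes was 78823 in KNP replicate 2, against 1320 to 2388 in the other KNP arrays.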

How the results depend on the processing

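The count of 0 probe sets past an adjusted p of 0.05, over all probe sets and over the members, was the same in 19 alternative fits and, for the members, at an adjusted p of 0.10. The smallest member adjusted p in any fit was 0.646. Counts at an unadjusted p under 0.05 ran from 372 to 1516 over all probe sets (511 with 8 arrays; 784 without KNP replicate 1, 884 without YS replicate 4 and 1516 without the 3 arrays) and from 0 to 3 over the members; the replicate block gave 3, adding CD3G, with 0 past the adjusted threshold. The mean stayed lower in KNP in all 20 fits for CCL5, CD69, CD3D, CD3G and the dim CD4 and PRF1 probe sets except the second CD4 probe set, which stayed higher. With the no-target level set at the highest control, or at the median plus 3 median absolute deviations, the number of member values above it was 34 or 51, against 41. The 3'/5' difference between breeds kept its sign with a pseudocount of 1 or with any 1 array left out, from 0.085 without KNP replicate 1 to 2.22 without KNP replicate 4.

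Of 38 probe sets followed through the fits, 14 turned sign in at least 1, none of them past the threshold; the cause was not tested. With array weights the differences were 0.21 for CD3E, 0.12 for CD2, 0.26 for MAP3K7, 0.024 for PAPD4, 0.0028 for CXCL9 and 0.105 for CORO1A. Without the 3 arrays they were 0.20 for CD3E, 0.060 for CD2, 0.17 for HBB, 0.37 for ADIPOQ, -0.57 for CKM, -0.13 for KRT10, 0.36 for MAP3K7 and 0.24 for CXCL9. With the 3'/5' covariate they were -0.079 for LEF1, 0.022 for HBB and 0.13 for ADIPOQ. With 1 array left out they ran from -0.42 to 0.13 for CD3E, -0.98 to 0.10 for CD8A, -0.046 to 0.91 for LEF1, -0.43 to 0.036 for HBB, -0.024 to 2.42 for CKM, -0.24 to 0.22 for MAP3K7, -0.27 to 0.044 for PAPD4, -0.11 to 0.54 for JCHAIN, -0.48 to 0.18 for CORO1A and -0.25 to 1.13 for STAT4. Signal over background limits CD4, PRF1, CD2, CD69, CD3G, CD3D on 2 KNP arrays, and CCL5 and CD8A on 1 KNP array each; 4 arrays per breed limit every value.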

Other observations

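The zeta chain of the T cell receptor complex, CD247, was chosen after its values were seen because its 4 probe sets disagreed. A dim probe set had signals of 48.0, 4.97, 49.1 and 24.3 in KNP replicates 1 to 4, against 133, 40.3, 85.3 and 247 in YS replicates 1 to 4, a measured log2 difference of -1.50. It exceeded the no-target level on 0 KNP and 3 YS arrays, so the size of that difference is uncertain and no fold is given. As measured, it had an unadjusted p of 0.0198 and an adjusted p of 0.99984 in limma. The measured difference was -0.89 without KNP replicates 1 and 2 and YS replicate 4, which stood out in their 3'/5' difference. The brightest had signals of 269, 442, 1173 and 604 in KNP replicates 1 to 4, against 637, 588, 720 and 243 in YS replicates 1 to 4, a difference of 0.089, and the other probe sets had differences of -0.50 and 0.23. On YS replicate 4, where the CD3 genes were highest, the dim probe set was highest and the brightest was lowest. LCK, the kinase that phosphorylates CD3, had differences of -0.27 and -0.10 in its 2 probe sets, and of 0.56 and 0.16 without the same 3 arrays. Both signs therefore turned when those arrays were left out.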
